A study of Homo sapiens with 9 samples.

Results

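The enzymes that make serine and carry its one-carbon unit on folate were followed through a knockdown of GPX3 in ovarian carcinoma cells. The genes were chosen by symbol from the table of counts per gene, and all 10 symbols were found among its 58735 genes: PHGDH, PSAT1 and PSPH of serine synthesis, the cytosolic SHMT1 and MTHFD1, and the mitochondrial SHMT2, MTHFD2, MTHFD2L, MTHFD1L and ALDH1L2. All 10 passed the filter on low counts that 17023 genes passed. The rule itself used symbols and no measured value. The enzymes were chosen with earlier results of these data known, so the shares of all genes printed beside their counts are no independent test. The series holds RNA sequencing of 9 samples. All were OVCAR3 cells, a long-used human line from high-grade ovarian carcinoma, grown in RPMI medium with fetal bovine serum and bovine insulin. A scramble short hairpin RNA (shRNA) was the control in 3 samples, and 3 samples each had shRNA 76 or shRNA 78 against GPX3, called sh76 and sh78 here, all at 72 h. The labels give the genotype of every sample as wild type. Neither the vector, the time of transduction nor any separate culture or clone behind a replicate is named in the labels, so the tests measure the spread between these samples, which may be technical.

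Serine is made from the glycolytic intermediate 3-phosphoglycerate in 3 steps: PHGDH oxidises it, PSAT1 adds the amino group and PSPH removes the phosphate. Serine hydroxymethyltransferase then splits serine into glycine and a one-carbon unit on tetrahydrofolate, in the cytosol as SHMT1 and in the mitochondria as SHMT2. In mitochondria MTHFD2 or MTHFD2L oxidises that unit, MTHFD1L releases it as formate or ALDH1L2 as carbon dioxide, and in the cytosol the trifunctional MTHFD1 takes up the formate for purine and thymidylate synthesis. MTHFD2 is known for high expression in embryonic and tumour cells and low expression in most adult tissue. ATF4, a transcription factor induced by amino acid shortage and other stress, is known to drive PHGDH, PSAT1, PSPH, SHMT2 and MTHFD2.

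The sequences shown are the 250 bases before the RefSeq start of the genes with the largest fall in each branch, PSAT1 and MTHFD2, and of MTHFD1, whose estimate lay near 0. RefSeq (GRCh38.p14) gave a start for 7 of the 10 genes, and for PSPH, SHMT2 and ALDH1L2 no promoter is shown. Searched on both strands were TGATGNAA, the core of the element bound by ATF4 with a C/EBP protein, the E-box CACGTG and the CCAAT box. They were present in 3.14%, 6.34% and 32% of 35116 RefSeq windows of the same length. Capitals mark the matches, and each sequence runs 5′ to 3′ on the plus strand.
PSAT1, chr9:78296875-78297124: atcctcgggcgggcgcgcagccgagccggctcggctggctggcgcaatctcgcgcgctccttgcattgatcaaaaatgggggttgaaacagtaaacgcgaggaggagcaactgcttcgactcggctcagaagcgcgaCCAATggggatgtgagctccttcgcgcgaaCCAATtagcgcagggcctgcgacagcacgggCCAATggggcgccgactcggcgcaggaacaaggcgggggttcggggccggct
MTHFD2, chr2:74198365-74198614: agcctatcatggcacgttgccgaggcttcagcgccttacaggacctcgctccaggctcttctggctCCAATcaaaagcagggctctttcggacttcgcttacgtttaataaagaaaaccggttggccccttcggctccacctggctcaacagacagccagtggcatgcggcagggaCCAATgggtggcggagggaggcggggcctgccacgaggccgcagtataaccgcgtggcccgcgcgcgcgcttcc
MTHFD1, chr14:64388103-64388352: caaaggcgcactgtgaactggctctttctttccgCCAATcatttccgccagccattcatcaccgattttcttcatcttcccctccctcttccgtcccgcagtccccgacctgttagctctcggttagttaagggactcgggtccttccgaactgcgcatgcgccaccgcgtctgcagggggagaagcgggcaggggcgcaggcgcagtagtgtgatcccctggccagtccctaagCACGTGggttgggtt
The PSAT1 window held 3 CCAAT boxes, 113, 83 and 52 bases before the start. In all windows 3 or more were found in 2.93%, a cut equal to the count in this window, which was chosen for the fall of its gene. The MTHFD2 window held 2, at 184 and 74 bases, and the SHMT1 window, not shown, also held 2. The MTHFD1 window held 1 at 216 bases and an E-box at 15 bases. TGATGNAA was absent from these windows and from those of PHGDH, SHMT1 and MTHFD2L. MTHFD1L, with 4 RefSeq starts, had a single TGATGCAA site that lies in overlapping windows. It is 129 bases before the first listed start and 90 before the third. These matches are letters in a window and show no binding.

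The label of the knockdown was checked on GPX3 itself (ENSG00000211445, chromosome 5), a secreted glutathione peroxidase. Its level was 173, 109 and 117 CPM (counts relative to the library's total after TMM scaling) in scramble replicates 1 to 3, 56.8, 55.2 and 55.5 with sh76, and 35.3, 28.4 and 28.3 with sh78. This was a log2 fold change of −1.25 (edgeR quasi-likelihood test, adjusted p = 0.00264) with sh76 and −2.12 (adjusted p = 0.000125) with sh78. Total counts ran from 14652965 to 21327562 per library, mitochondrially encoded genes took 4.24% to 5.16% of them, and no library went against its label. Of 12 ovarian carcinoma markers fixed as a list, all 12 were above 1 CPM, against 2 of 6 fibroblast, 2 of 6 leukocyte and 2 of 4 endothelial markers. The summed ovarian markers were 14400 to 15500 CPM with scramble, 13500 to 14700 with sh76 and 12400 to 13400 with sh78. KRT8 weighs most in this sum, at means of 5562, 4809 and 3878 CPM. The 12 markers did not move together: 8 had a negative log2 fold change with each hairpin, and CD24 rose from 902 to 1097 and 1285 CPM. Leukocyte markers summed to 2.25 to 3.87, 3.72 to 4.41 and 3.71 to 4.85 CPM, and the fibroblast markers 27.6 to 39.2, 30.8 to 55.1 and 34.7 to 47.2 CPM. The 55.1 CPM was in sh76 replicate 2, with 53 counts of COL3A1 and 142 of COL1A2. All other libraries had at most 4 and 51 counts of these genes. The endothelial markers summed to 17.0 to 19.9, 18.1 to 24.2 and 23.1 to 31.9 CPM, of which KDR had means of 9.39, 13.7 and 18.8. No marker of these lists was at 0 in all libraries, and the part of these shifts in the results was not tested.

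After GPX3 knockdown 5 of the 10 enzyme genes were lower with both hairpins. They were PSAT1, PSPH, SHMT2, MTHFD2 and ALDH1L2, which fell to between 57.5% and 80.4% of the scramble level. PHGDH and SHMT1 passed the test as lower with sh76 and did not pass it with sh78. MTHFD1L stood at 83.7% and 85.7% of scramble without passing, MTHFD1 at 100.2% with each hairpin, and MTHFD2L rose with sh76. These calls are from the fit without a replicate block. A fit blocked on replicate number also called PHGDH lower with sh78 and MTHFD1L lower with both hairpins. It called 10.7% of all genes lower with sh76 and 10.1% with sh78. With sh76 7 of the 10 genes were called lower and 1 higher, where a call is an adjusted p under 0.05 over all 17023 genes. The share of all genes called lower with sh76 was 2.16%, and 1.43% were called higher. Without sh76 replicate 1 or 2 only 4 of the 10 were called with sh76, and 5 without scramble replicate 1 or sh76 replicate 3. With sh78 5 of 10 were called lower and 0 higher, against 2.56% of all genes called lower. The same 5 were lower with both hairpins, against 0.881% of all genes, and the hairpins share their control libraries. For the mean of both hairpins 7 of 10 were called lower, against 2.55%. That count was 5 by limma and without any 1 scramble library, sh76 replicate 2 or sh78 replicate 2, since PHGDH and SHMT1 lost the call, each under 7 of 14 alternatives. The median log2 fold change of the 10 genes was −0.32 with sh76 and −0.29 with sh78, while that of all genes tested was 0.0064 and 0.0063. In 8 of the 10 genes the highest of the 6 hairpin libraries was under the lowest of the 3 scramble libraries, which held for 4.82% of all genes. In bulk RNA of a culture, fewer expressing cells and less RNA per cell cannot be told apart.

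**Figure D1:**
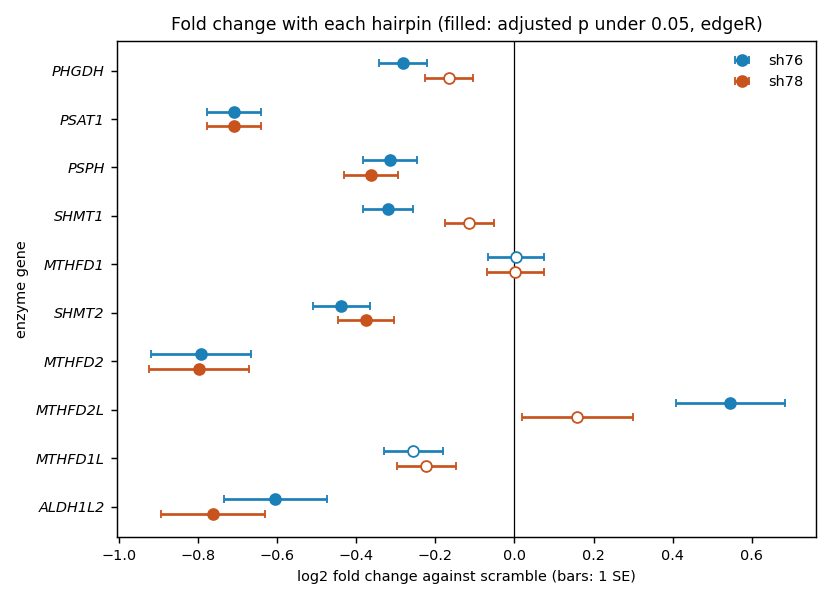
Log2 fold change of each of the 10 genes against scramble, with sh76 and sh78 (x axis; bars are 1 SE; filled points have an adjusted p under 0.05). PSAT1 and MTHFD2 lie farthest left of their branches with both hairpins, MTHFD1 sits at 0, and MTHFD2L lies to the right.

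The serine synthesis branch was led by PSAT1 (ENSG00000135069, chromosome 9, 78297143 to 78330093, plus strand), the phosphoserine aminotransferase whose promoter is shown above. Its level was 467, 422 and 408 CPM with scramble, 254, 273 and 266 with sh76, and 259, 284 and 250 with sh78. No hairpin library reached the lowest scramble library, and those of sh76 and sh78 lay in one range. This was a log2 fold change of −0.71 with each hairpin (SE 0.07 for both, adjusted p = 7.92e-05 and 7.32e-05 by edgeR), which left 61.1% of the scramble level.

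PSPH (ENSG00000146733, chromosome 7, 56011051 to 56051604, minus strand), the phosphatase of the last step, is less abundant in this line. It stood at 68.0, 69.6 and 67.1 CPM with scramble, 52.1, 55.8 and 56.6 with sh76, and 51.8, 55.0 and 52.4 with sh78. All 3 scramble libraries were close together and above all others. PSPH fell by 0.31 on the log2 scale with sh76 (SE 0.07, adjusted p = 0.0214) and by 0.36 with sh78 (SE 0.07, adjusted p = 0.00788). The sh76 call was lost without scramble replicate 2 or 3 (adjusted p = 0.0749 and 0.0507) or without any 1 sh76 library (0.05 to 0.0774).

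PHGDH (ENSG00000092621, chromosome 1, 119648411 to 119744226, plus strand), the dehydrogenase that opens the pathway, had the smallest change of the branch. Its level was 666, 623 and 620.0 CPM with scramble, 504, 517 and 550 with sh76, and 599, 559 and 543 with sh78. All 6 hairpin libraries were below the 3 of scramble. PHGDH fell with sh76 (log2 fold change −0.28, SE 0.06, adjusted p = 0.0201), and with sh78 the value was −0.17 (SE 0.06, adjusted p = 0.161). A fit blocked on replicate number called PHGDH with sh78 too (adjusted p = 0.00411). The sh76 call was lost without scramble replicate 1 or sh76 replicate 1 or 2 (adjusted p = 0.0511, 0.0661 and 0.0995). The 2 hairpins were not shown to differ for PHGDH (sh78 over sh76 0.12, adjusted p = 0.38).

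**Figure D2:**
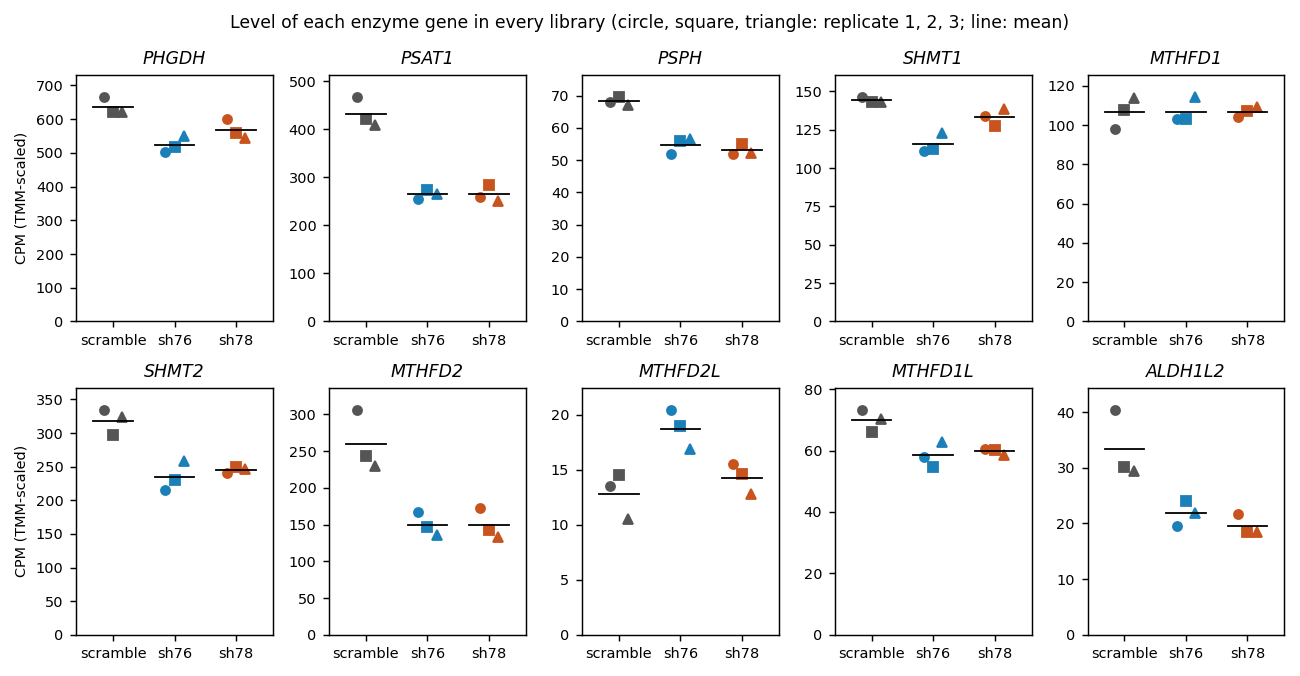
TMM-scaled CPM (y axis, from 0) of each of the 10 genes in the 9 libraries by group, with symbols for replicates 1 to 3 and a line at the group mean. In 8 panels all hairpin points lie below all scramble points, and the exceptions are MTHFD1 and MTHFD2L.

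The mitochondrial branch fell in 3 of its 5 genes with both hairpins. MTHFD2 (ENSG00000065911, chromosome 2, 74198562 to 74217565, plus strand), the methylenetetrahydrofolate dehydrogenase of this branch, showed the lowest share left of the 10 genes. Its level was 306, 243 and 230 CPM with scramble, 167, 147 and 136 with sh76, and 172, 142 and 133 with sh78. Replicate 1 was the highest library in each group, and no hairpin library reached the lowest scramble library. This was a log2 fold change of −0.79 with sh76 (SE 0.13, adjusted p = 0.00734) and −0.80 with sh78 (SE 0.13, adjusted p = 0.0054), or 57.7% and 57.5% of scramble. Taken between libraries of the same replicate number, the 3 differences were −0.87, −0.73 and −0.76 with sh76 and −0.83, −0.77 and −0.79 with sh78. A fit with the replicate block gave adjusted p = 2.49e-18 and 2e-18. It leaves 4 residual degrees of freedom, and its estimate of the spread also borrows from all other genes. The p-values therefore do not rest on these 9 values of MTHFD2 alone. That fit called 10.7% of all genes lower with sh76 and 10.1% with sh78.

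SHMT2 (ENSG00000182199, chromosome 12, 57229327 to 57234935, plus strand), the mitochondrial hydroxymethyltransferase, had 334, 297 and 324 CPM with scramble. It had 215, 231 and 259 CPM with sh76, and 241, 249 and 246 with sh78. Both hairpin groups overlapped each other and stayed under scramble. SHMT2 fell by 0.44 on the log2 scale with sh76 (SE 0.07, adjusted p = 0.0038) and by 0.38 with sh78 (SE 0.07, adjusted p = 0.00767). NDUFA4L2 overlaps SHMT2 on the opposite strand and the libraries carry no strand. The overlap is short, from 57234903 to 57234935. NDUFA4L2 had at most 169 counts in a library and also fell with sh76 (log2 fold change −1.05, adjusted p = 0.0203 by edgeR). With sh78 its value was −0.70 (adjusted p = 0.109).

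ALDH1L2 (ENSG00000136010, chromosome 12, 105019784 to 105084577, minus strand), which oxidises formyltetrahydrofolate to carbon dioxide with release of NADPH, is a low-level gene of the set. Its level was 40.3, 30.2 and 29.4 CPM with scramble, 19.6, 24.0 and 22 with sh76, and 21.7, 18.5 and 18.5 with sh78. Scramble replicate 1 stood above the other scramble libraries, and all 6 hairpin libraries lay below the lowest of them. C12orf45 overlaps ALDH1L2 on the opposite strand, and the libraries carry no strand. It had up to 597 counts in a library, where ALDH1L2 had 269 to 627. The log2 fold change of C12orf45 was −0.14 with sh76 (adjusted p = 0.552 by edgeR) and −0.03 with sh78 (adjusted p = 0.922). ALDH1L2 fell by 0.60 with sh76 (SE 0.13, adjusted p = 0.0191) and by 0.76 with sh78 (SE 0.13, adjusted p = 0.00423). Without scramble replicate 1 the sh76 value was −0.45 (adjusted p = 0.0534), and the call was also lost without sh76 replicate 1 or 3 (adjusted p = 0.0591 and 0.0643) and by limma on log2(FPKM + 1) (−0.46, adjusted p = 0.0603).

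MTHFD1L (ENSG00000120254, chromosome 6, 150865549 to 151101887, plus strand) encodes the mitochondrial formyltetrahydrofolate synthetase, which releases formate. It had 73.1, 65.9 and 70.3 CPM with scramble, 58.0, 54.6 and 62.7 with sh76, and 60.5, 60.2 and 58.7 with sh78. Scramble did not overlap the hairpin libraries. This was a log2 fold change of −0.26 with sh76 (SE 0.07, adjusted p = 0.0748) and −0.22 with sh78 (SE 0.07, adjusted p = 0.12). With the replicate block it was called with both hairpins (adjusted p = 0.000687 and 0.00339).

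MTHFD2L (ENSG00000163738, chromosome 4, 74114174 to 74303099, plus strand), the second mitochondrial dehydrogenase and a paralogue of MTHFD2, moved the other way at a low level. It had 13.5, 14.5 and 10.5 CPM with scramble, 20.4, 19.0 and 16.9 with sh76, and 15.5, 14.6 and 12.8 with sh78. All sh76 libraries lay above all of scramble and all of sh78, and the sh78 libraries overlapped scramble. MTHFD2L rose with sh76 by 0.55 on the log2 scale (SE 0.14, adjusted p = 0.042), and with sh78 the value was 0.16 (SE 0.14, adjusted p = 0.636). The sh76 call was lost when only the groups compared were fitted (adjusted p = 0.0645) and without any 1 library of scramble (0.0593 to 0.167), any of sh76 (0.0577 to 0.144) or sh78 replicates 2 or 3 (0.0638 and 0.0507). By limma on log2(FPKM + 1) it was lost at 0.33 (adjusted p = 0.107). The call held under 5 of 15 alternatives, among them the replicate block (edgeR adjusted p = 4.44e-05). With sh78 the block did not call MTHFD2L (adjusted p = 0.317).

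Of the cytosolic genes 1 passed the test, with sh76. SHMT1 (ENSG00000176974, chromosome 17, 18327860 to 18363563, minus strand), the cytosolic hydroxymethyltransferase, had 146, 143 and 143 CPM with scramble. It had 111, 112 and 123 CPM with sh76, and 134, 127 and 139 with sh78. Each sh78 library lay between the sh76 and the scramble libraries. SHMT1 fell with sh76 (log2 fold change −0.32, SE 0.06, adjusted p = 0.0117), and with sh78 the value was −0.11 (SE 0.06, adjusted p = 0.383). Without sh76 replicate 2 the sh76 call was lost (adjusted p = 0.0728). The gene SMCR8 overlaps SHMT1 on the opposite strand, with up to 2030 counts, and had log2 fold changes of 0.20 (adjusted p = 0.112) and 0.05 (adjusted p = 0.777).

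MTHFD1 (ENSG00000100714, chromosome 14, 64388031 to 64463457, plus strand), the trifunctional cytosolic enzyme, had 98.0, 108 and 114 CPM with scramble. It had 103, 103 and 114 CPM with sh76, and 104, 107 and 109 with sh78. All 3 groups overlapped throughout. Their log2 fold change was 0.0035 with sh76 and 0.0025 with sh78 (SE 0.07 for both, adjusted p = 0.99 and 0.993). This does not show that the levels were equal. ZBTB25 overlaps MTHFD1 on the opposite strand, with up to 354 counts in a library. It had log2 fold changes of 0.07 (adjusted p = 0.82 by edgeR) and 0.09 (adjusted p = 0.761).

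The balance between the compartments was measured as the log2 CPM of the mitochondrial gene minus that of its cytosolic counterpart in each library. The 6 hairpin libraries were compared with the 3 of scramble by an exact two-sided permutation test over all 84 regroupings, whose smallest p is 0.0119, with adjustment over the 5 pairs. A single hairpin of 3 libraries against 3 cannot go below an exact permutation p of 0.10 and was not tested alone.

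The difference between MTHFD2 and MTHFD1 was 1.64, 1.17 and 1.01 with scramble, 0.69, 0.51 and 0.25 with sh76, and 0.73, 0.41 and 0.28 with sh78. All 6 hairpin libraries lay below scramble, by 0.80 on average (exact permutation p = 0.0119, adjusted p = 0.0298). As a ratio of FPKM (counts divided by gene length and by library size), MTHFD2 stood at 4.74 ± 1.12 times MTHFD1 with scramble, 2.71 ± 0.414 with sh76 and 2.69 ± 0.441 with sh78 (SD, n = 3). The size of these ratios depends on the gene lengths in the deposited table, 4870 bases for MTHFD2 and 9377 for MTHFD1.

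MTHFD1L against MTHFD1 showed a smaller shift in the same direction. Its log2 difference was −0.42, −0.71 and −0.70 with scramble, −0.83, −0.92 and −0.87 with sh76, and −0.78, −0.83 and −0.90 with sh78. Again all 6 hairpin libraries were lower, by 0.24 on average (exact permutation p = 0.0119, adjusted p = 0.0298). With regroupings only within replicate numbers, 27 in all, both MTHFD1 pairs gave p = 0.037 by exact permutation, the smallest that 27 allow, and adjusted p = 0.0926.

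SHMT2 against SHMT1 was 1.19, 1.05 and 1.18 with scramble, 0.95, 1.04 and 1.07 with sh76, and 0.85, 0.97 and 0.83 with sh78. Its mean shift of −0.19 missed the threshold after adjustment (exact permutation p = 0.0476, adjusted p = 0.0794), and 5 of 6 hairpin libraries lay below scramble. MTHFD2L against MTHFD1 shifted by 0.55 with sh76 and 0.16 with sh78 (both hairpins 0.35, exact permutation p = 0.143, adjusted p = 0.179). ALDH1L2 could not be set against its cytosolic counterpart with any precision, since ALDH1L1 had few counts. The ALDH1L2 over ALDH1L1 shift was 0.21 (exact permutation p = 0.714, adjusted p = 0.714).

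**Figure D3:**
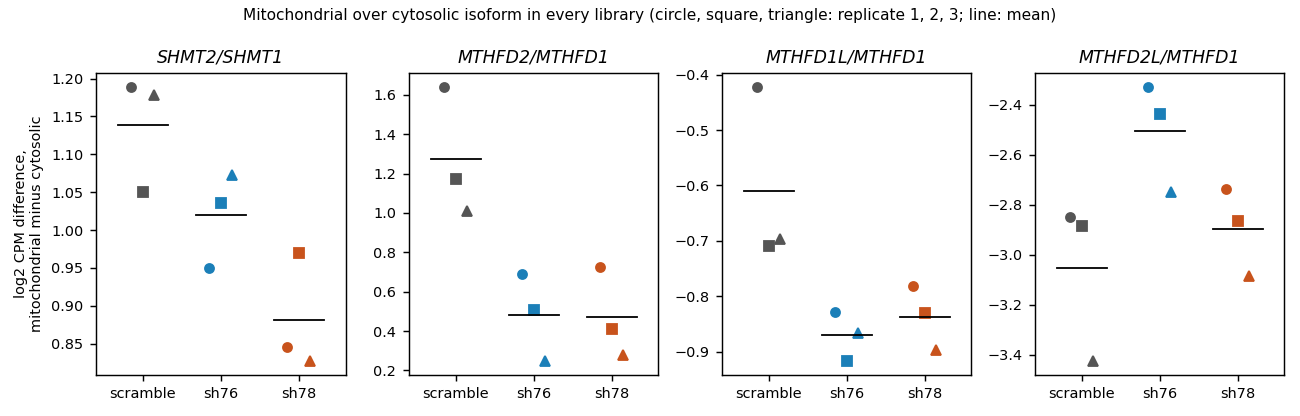
Log2 CPM of the mitochondrial minus the cytosolic gene (y axis, different range in each panel) in the 9 libraries by group, with symbols for replicates 1 to 3 and a line at the mean. MTHFD2/MTHFD1 and MTHFD1L/MTHFD1 have all 6 hairpin points below all scramble points, SHMT2/SHMT1 has 5 of 6, and MTHFD2L/MTHFD1 lies the other way with sh76.

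The hairpins were also compared with each other. None of the 10 genes was called between sh78 and sh76 by edgeR, and 0 by DESeq2, while 3.7% of all genes were called by edgeR in either direction. At an unadjusted p under 0.05 there were 2, SHMT1 and MTHFD2L. The share of all genes under that unadjusted threshold was not counted, so no excess can be read from these 2. SHMT1 was higher with sh78 than with sh76 in 3 of 3 libraries (log2 0.21, SE 0.06, adjusted p = 0.0934), and MTHFD2L was lower in 3 of 3 (−0.39, SE 0.14, adjusted p = 0.152). With the replicate block both were called (adjusted p = 0.00105 and 0.00313), in a fit that called 18.3% of all genes. That fit called 10.7% of all genes lower with sh76 and 10.1% with sh78, and of these enzymes 8 and 7.

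Levels between genes are compared per length, on the deposited FPKM scale. The length is that of the gene in the deposited table, 9217 bases for PHGDH and 2188 for PSAT1, so order and ratios depend on it. Without division by length PHGDH was higher, at a mean of 636 CPM against 432 for PSAT1 with scramble. PSAT1 was the highest with scramble at 196 ± 13.4 FPKM, followed by PHGDH at 68.6 ± 2.62, SHMT2 at 65.4 ± 3.99 and MTHFD2 at 53.0 ± 8.1. PSPH followed at 24.6 ± 0.373, SHMT1 at 19.7 ± 0.211, MTHFD1L at 13.8 ± 0.731 and MTHFD1 at 11.3 ± 0.902, with ALDH1L2 at 3.89 ± 0.702 and MTHFD2L at 1.3 ± 0.205 (SD, n = 3). The neighbours PHGDH and SHMT2 overlapped in their libraries, as did SHMT2 and MTHFD2, and no other neighbours did. SHMT2 thus stood at 3.32 ± 0.175 times SHMT1 with scramble, 3.06 ± 0.132 with sh76 and 2.77 ± 0.152 with sh78. MTHFD2L, the gene that rose with sh76, remained the lowest, at 0.116 ± 0.0243 times MTHFD1 with scramble and 0.169 ± 0.0247 with sh76.

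**Figure D4:**
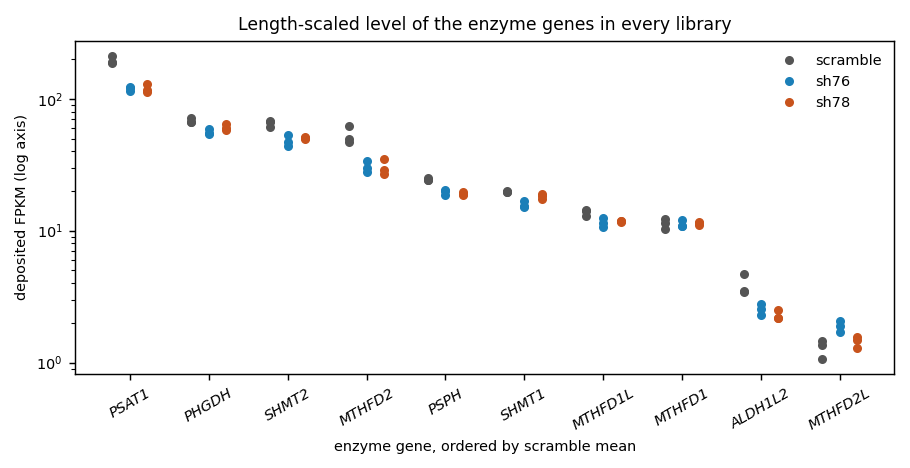
Deposited FPKM (log axis) of the 10 genes in each library, ordered by the scramble mean, with 1 column of 3 points per group. PSAT1 is highest, at 196 FPKM with scramble, and MTHFD2L is lowest in every group.

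The genes whose log2 CPM followed each enzyme most closely over the 9 libraries were listed among 11042 protein-coding genes of mean FPKM 1 or more. These correlations describe 9 libraries that share groups and replicate numbers. For PSAT1 they were PYCR1 of proline synthesis (Pearson r 0.99), SLC3A2, the heavy chain of amino acid transporters (0.989), and LONP1, a mitochondrial protease (0.978). For MTHFD2 they were CEBPG, a bZIP transcription factor (0.986), GPT2, the mitochondrial alanine aminotransferase (0.986), and ERGIC3 (0.983). For ALDH1L2 they were PCK2, the mitochondrial phosphoenolpyruvate carboxykinase (0.988), the cysteinyl-tRNA synthetase CARS (0.979) and NBR1 (0.971). PSPH had the methionyl-tRNA synthetase MARS (0.981), KIF13A (0.979) and PSAT1 (0.972) of the same branch.

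The remaining enzymes had other leading matches. SHMT2 had ISOC2 (0.988), SMIM20 (0.981) and RCC2 (0.974), and MTHFD1L had LSM4 (0.982), RCC2 (0.977) and ARFGEF2 (0.974). PHGDH had NAT8L (0.977), PQBP1 (0.97) and CD151 (0.95), and SHMT1 had ZNF358 (0.985), MAGED2 (0.974) and NR2F6 (0.973). MTHFD1 had RBM12 (0.976), BTF3 (0.94) and WDR43 (0.938), and MTHFD2L had TTC21B (0.974), BLZF1 (0.95) and ATAT1 (0.95). Between enzymes, SHMT2 and MTHFD1L had r 0.95, and SHMT1 and MTHFD2L had r −0.87. Over deviations from the group means these were 0.743 and −0.43, and that of PSAT1 and PSPH was 0.578 in place of 0.972. These pairs kept their sign, and others did not. PSPH and MTHFD2 went from 0.85 to −0.465, SHMT2 and MTHFD2 from 0.814 to −0.249, and PSAT1 and SHMT1 from 0.697 to −0.198.

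Around the 10 enzymes most pathway genes did not pass the test. Of 57 further genes in 6 lists (other folate enzymes and transport, glycine cleavage, serine and glycine use, methionine and transsulfuration, purine synthesis and lower glycolysis) 52 were tested. With sh76 0 were called higher and 2 lower, where 1.43% and 2.16% of all genes were. With sh78 1 was called higher and 4 lower, where 1.85% and 2.56% of all genes were. Their median log2 fold change was −0.08 with each hairpin. Of 11 methionine and transsulfuration genes and 8 purine synthesis genes tested, 0 were called with either hairpin by edgeR or by DESeq2. At an unadjusted p under 0.05 in edgeR there were 4 and 3 methionine genes with sh76 and sh78, and 1 purine gene with each. The share of all genes under that unadjusted threshold was not counted, so such counts have no background beside them. Of 5 lower glycolysis genes 1, GAPDH, was lower with sh78 (−0.24, adjusted p = 0.0486), a call lost under 11 of 15 alternatives. With sh76 edgeR and DESeq2 called 0 of these 5, and 1 had an unadjusted p under 0.05.

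Of 13 other folate genes tested, 1 fell with both hairpins, the folate receptor FOLR1, which is also 1 of the 12 ovarian carcinoma markers. Its level was 57.5, 68.8 and 64.1 CPM with scramble, 36.6, 25.5 and 25.9 with sh76, and 36.3, 25.7 and 27.7 with sh78. Neither hairpin group overlapped scramble, and the log2 fold change was −1.12 (adjusted p = 0.00268) and −1.08 (adjusted p = 0.00239). Of 12 genes of serine and glycine use 1 was lower with both hairpins, SLC1A5, a carrier of neutral amino acids. It went from 300.0, 280 and 266 CPM to 198, 206 and 190 with sh76 and 221, 216 and 206 with sh78 (log2 fold change −0.51 and −0.40, adjusted p = 0.000541 and 0.0022). The related carrier SLC1A4 was lower with sh78 (−0.61, adjusted p = 0.044), a call lost under 7 of 15 alternatives, and with sh76 the value was −0.58 (adjusted p = 0.0566). SLC1A4 was called with sh76 under 4 alternatives: the replicate block (adjusted p = 2.2e-05), DESeq2 (0.0137), no filter (0.000557) and without scramble replicate 3 (0.0171).

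The glycine cleavage system, which breaks down glycine to feed mitochondrial folate, had 3 genes tested. GLDC, its glycine decarboxylase, had 193, 245 and 235 CPM with scramble, 228, 286 and 261 with sh76, and 360, 447 and 432 with sh78. Every sh78 library lay above all others, and sh76 overlapped scramble. GLDC rose with sh78 (log2 fold change 0.88, adjusted p = 0.0012), and with sh76 the value was 0.20 (adjusted p = 0.379). With the replicate block GLDC was called with sh76 too (0.205, adjusted p = 0.000255), at log2 differences of 0.24, 0.22 and 0.15 between same-numbered libraries. GLDC, GAPDH and SLC1A4 were named after their values were seen, since they were called with 1 hairpin in the fit without a block.

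ATF4, the regulator named above, had 318, 315 and 326 CPM with scramble, 257, 258 and 280 with sh76, and 248, 241 and 253 with sh78. Scramble lay above all hairpin libraries. ATF4 mRNA fell by 0.27 on the log2 scale with sh76 (adjusted p = 0.0161) and by 0.37 with sh78 (adjusted p = 0.00189). Leaving out sh76 replicate 1 or 2 ended the sh76 call (adjusted p up to 0.0944). Much of ATF4 control lies in translation, which was not measured here.

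**Figure D5:**
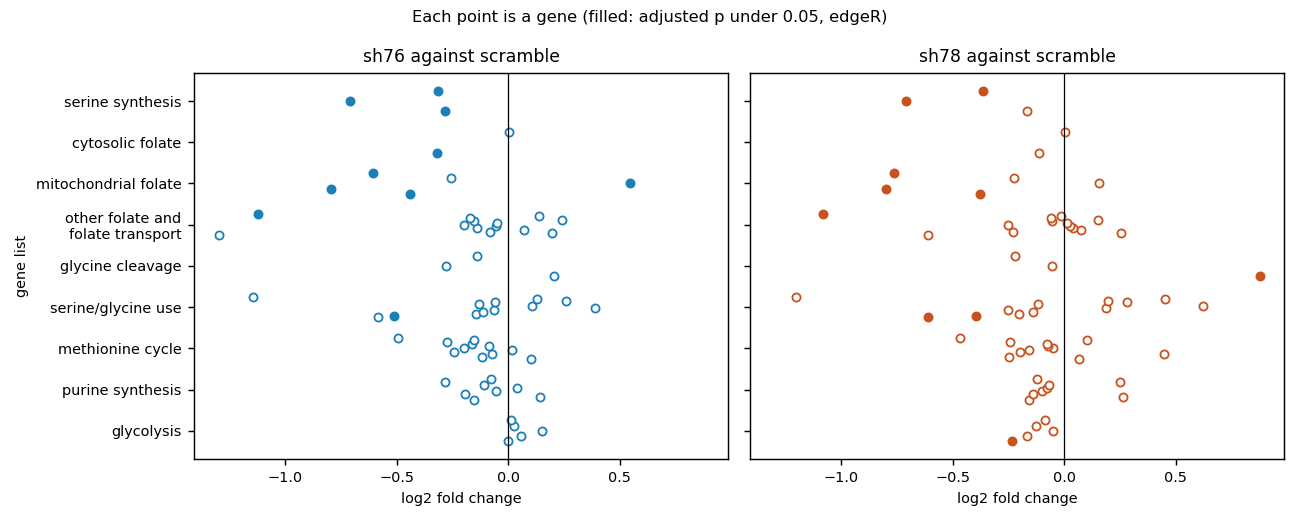
Log2 fold change of each tested gene (x axis, 1 point per gene, filled at an adjusted p under 0.05) by list, for sh76 and sh78. The serine synthesis and mitochondrial folate genes hold most of the filled points to the left of 0, and the methionine and purine lists have no filled point.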

How the data were processed

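Messenger RNA was selected with poly-T beads and the libraries were non-directional, per the labels' protocols. The authors aligned reads to hg38 with HISAT2 2.0.5 and counted with featureCounts 1.5.0-p3, per the submitters' processing notes, whose settings are not given in the sources used here. The authors deposited raw counts per gene and FPKM values, both with 58735 genes and 9 columns. Gene coordinates are those of the deposited table. Overlapping genes on opposite strands cannot be told apart by such libraries, and PHGDH, PSAT1 and PSPH overlap no annotated gene.

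For the main test edgeR 4.0.16 (R 4.3.3) was run on the counts after filterByExpr (minimum count 10, minimum total 15), with TMM scaling, robust quasi-likelihood fits and a coefficient for each group, all 9 samples together. The common biological coefficient of variation was 10.4%. P-values were adjusted over 17023 genes by Benjamini-Hochberg. Compartment differences used log2 CPM with a prior count of 2. Alternatives were DESeq2 1.42.0, limma 3.58.1 on log2(FPKM + 1), other size factors, no filter, the groups compared alone, a replicate block and leaving out each library. Of these tests only edgeR without a block was run on simulated counts, drawn with no pairing of replicates, and the outcome is not reported here. Chi-square per degree of freedom between replicates of a group was 4.9 to 11.07 in 9 pairs, so none was a duplicate. Deviations from group means correlated with r 0.142 to 0.391 in the 9 same-numbered pairs between groups and −0.31 to 0.0639 in the 18 others, so the replicate numbers were read as pairing the samples.

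All 10 enzymes, GPX3, ATF4, further pathway genes called with both hairpins and the 3 closest genes of each enzyme were named by rule. The enzymes and lists were chosen with earlier results of these data known.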

Additional observations from a re-analysis of the deposited data

Results flagged for a closer look

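Among GPX3, the enzymes, the genes of the pathway lists and the regulators ATF4 and MYC, 2 genes were called between the hairpins. The genes named by correlation were not part of this check. For GPX3 the log2 value of sh78 minus sh76 was −0.862 (edgeR adjusted p = 0.0194, lower in 3 of 3 libraries). The call was lost without any 1 sh76 library (adjusted p = 0.0604 to 0.0662) and without sh78 replicate 2 or 3 (0.0737 and 0.0843). GLDC, the glycine decarboxylase, was higher with sh78 than with sh76 by 0.675 (edgeR adjusted p = 0.0067, higher in 3 of 3 libraries), and this call held under all 15 alternatives.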

How the results depend on the processing

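The sh78 calls of PSAT1, PSPH, SHMT2, MTHFD2 and ALDH1L2 held under all 15 alternatives, and the calls of PSAT1, SHMT2 and MTHFD2 also held with sh76. Leaving out 1 library moved the number of enzymes called with sh76 from 8 to between 4 and 8, the lowest without sh76 replicate 1 or 2, and moved all genes called from 610 to 237 to 655 (sh76), 750 to 418 to 810 (sh78), 687 to 299 to 726 (mean of both) and 629 to 273 to 780 (sh78 against sh76). Without a filter 1149, 1212, 1181 and 1125 genes were called in these 4 comparisons, and with the replicate block 3467, 3388, 3462 and 3117. The block also called 2 enzymes between the hairpins in place of 0. The block kept the MTHFD2/MTHFD1 and MTHFD1L/MTHFD1 shifts at −0.7967 and −0.2443 with p = 0.037 by exact permutation, the smallest that 27 regroupings allow, so their adjusted p of 0.0926 says nothing about stability. Leaving out 1 library gave ranges of −0.929 to −0.614, −0.2945 to −0.1506 and, for SHMT2/SHMT1, −0.2335 to −0.1644. Without a scramble library only 28 regroupings exist, so a call after adjustment needs most of the 5 pairs to reach the smallest p. ALDH1L2/ALDH1L1 turned to −0.4159 on log2(FPKM + 0.1) and ran from −0.03768 to 0.4464 with 1 library left out.

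Among single enzymes, signs turned for uncalled values near 0. MTHFD1 with sh76 was −0.002673 by DESeq2, −0.001394 by limma and −0.05785 to 0.05036 with 1 library left out. It ran from −0.05687 to 0.05133 with sh78, and for the mean of both from −0.05736 to 0.05085, with −0.001312 by DESeq2. For sh78 against sh76, PSAT1 was 0.00177 with RLE size factors, 0.003962 by DESeq2, 0.003528 without a filter, 0.0003075 with only the groups compared and 0.002819 by limma, and −0.05356 to 0.04129 with 1 library left out. MTHFD1 was 0.0006818, 0.002721, 0.002572, 0.001461 (block) and 0.004448 by limma, and −0.02614 to 0.05099. MTHFD2 was 0.000876 without a filter and −0.1216 to 0.07879, and MTHFD1L −0.01373 to 0.0875. Depth was lowest for MTHFD2L, at 183 to 391 counts in a library.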
